A study of Mus musculus with 16 samples.

Results

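The T cell receptor α chain is assembled from a V and a J gene segment, and the junction between them, the CDR3 loop, is the part of the chain that lies over the peptide. TRAJ30 to TRAJ35 are 6 neighbouring J segments in the middle of the mouse J cluster. The α locus rearranges in rounds that work outward, from V and J segments that lie close together to pairs that lie far apart, so a J in the middle of the cluster can be reached by many V segments. TRAJ33 has a further role, since its pairing with TRAV1 gives the constant α chain of mucosal-associated invariant T (MAIT) cells, which see vitamin B2 metabolites on MR1.

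The data were 16 α chain libraries of CD8 T cells from C57BL/6 mice, in 8 groups of 2. The groups crossed genotype, Themis+/+Foxp3-GFP or Themis-/-Foxp3-GFP, with tissue, single positive CD8 thymocytes or lymph node CD8 T cells, and with sorting, all CD8 T cells or cells sorted as Vα3.2+. Themis is an adaptor of T cell receptor signalling that thymocytes need for positive selection. Its deletion was in the germline, so every cell type lacked it, and both genotypes carried the Foxp3-GFP reporter. No age was given, and the sources differed on whether a library came from 1 mouse or from pooled mice, so p-values measure only the spread between these libraries. A clonotype row is 1 CDR3 nucleotide sequence with its V, its J and the number of reads that carry it. Of 83992 rows and 971532 reads over 43 TRAJ segments, 16422 rows and 169064 reads had 1 of the 6 segments as the first J hit.

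Depth and sorting set how far each library can be read. The 8 libraries of all CD8 T cells held between 57455 and 146191 reads, and the 8 sorted libraries held between 10338 and 25247. TRAV9, the family recognised as Vα3, made up 98.8% to 99.9% of the reads in sorted libraries and 2.03% to 4.74% in libraries of all CD8 T cells. The replicate 1 libraries of sorted thymocytes held 7 (Themis+/+) and 11 (Themis-/-) rows of TRAJ30 to TRAJ35, so each of their shares rests on a few clonotypes. The files of the sorted libraries also had other column names than those of all CD8 T cells, so the sort and the run or software settings cannot be told apart.

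The germline segments are shown because each CDR3 described below ends in 1 of these stretches. They lie on the plus strand of chromosome 14 (GENCODE annotation of GRCm38), each a single-exon J gene, from TRAJ35 at the V side to TRAJ30, over 6151 bp. The bases that can enter the CDR3 are in capitals, and the framework that follows is in lower case. TRAJ30 is at chr14:54189866-54189924, TRAJ31 at chr14:54187895-54187951 and TRAJ32 at chr14:54186101-54186166. TRAJ33 is at chr14:54185358-54185414, TRAJ34 at chr14:54184699-54184756 and TRAJ35 at chr14:54183774-54183838.
TRAJ30: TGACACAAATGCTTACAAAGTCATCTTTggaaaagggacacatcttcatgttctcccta
TRAJ31: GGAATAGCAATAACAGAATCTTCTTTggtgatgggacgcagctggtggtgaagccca
TRAJ32: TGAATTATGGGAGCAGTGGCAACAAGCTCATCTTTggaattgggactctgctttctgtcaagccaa
TRAJ33: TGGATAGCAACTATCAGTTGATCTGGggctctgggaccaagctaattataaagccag
TRAJ34: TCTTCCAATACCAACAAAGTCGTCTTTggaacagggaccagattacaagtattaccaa
TRAJ35: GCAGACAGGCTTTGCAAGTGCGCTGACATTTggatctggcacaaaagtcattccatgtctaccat
TRAJ32 can give the most CDR3 bases, 35, and TRAJ31 and TRAJ33 the fewest, 26 each. TRAJ33 ends its CDR3 part in TGG, a tryptophan codon, where the other 5 segments end in TTT, a phenylalanine codon.

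TRAJ30 and TRAJ31 were among the most used J segments of CD8 T cells, and TRAJ35 was among the least used. In libraries of all CD8 T cells, TRAJ30 ranked between 2 and 7 of 43 by reads and TRAJ31 between 3 and 9, whereas TRAJ35 ranked between 27 and 43. TRAJ30 took 4.96% and 4.23% of reads in Themis+/+ thymus, 4.07% and 4.69% in Themis-/- thymus, 5.56% and 5.39% in Themis+/+ lymph node and 5.37% and 5.23% in Themis-/- lymph node. By reads, all 4 lymph node libraries thus lay above all 4 thymus libraries for TRAJ30. This did not hold on merged clonotypes, which are described below. TRAJ31 took 4.81% and 4.59%, 3.83% and 4.62%, 5.07% and 4.38%, and 3.47% and 3.79% in the same order. The 2 lowest shares of TRAJ31 were those of Themis-/- lymph node.

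TRAJ32, TRAJ33 and TRAJ34 were intermediate. TRAJ32 took 2.35% and 2.07% of reads in Themis+/+ thymus, 1.77% and 1.74% in Themis-/- thymus, 3.10% and 2.17% in Themis+/+ lymph node and 2.02% and 2.54% in Themis-/- lymph node. TRAJ33, the MAIT segment, took 2.65% and 3.31%, 2.34% and 2.63%, 3.01% and 2.42%, and 1.76% and 2.29% in the same order. For both of these segments the Themis-/- thymus libraries lay below the Themis+/+ ones. TRAJ34 took 2.23% and 2.85%, 2.34% and 2.42%, 3.24% and 2.92%, and 1.86% and 2.10%. TRAJ35 took 0.781% and 0.203%, 0.591% and 0.674%, 0.560% and 0.933%, and 1.72% and 0.874%. The replicates of TRAJ35 thus differed by more than 3 times in Themis+/+ thymus alone.

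**Figure D1:**
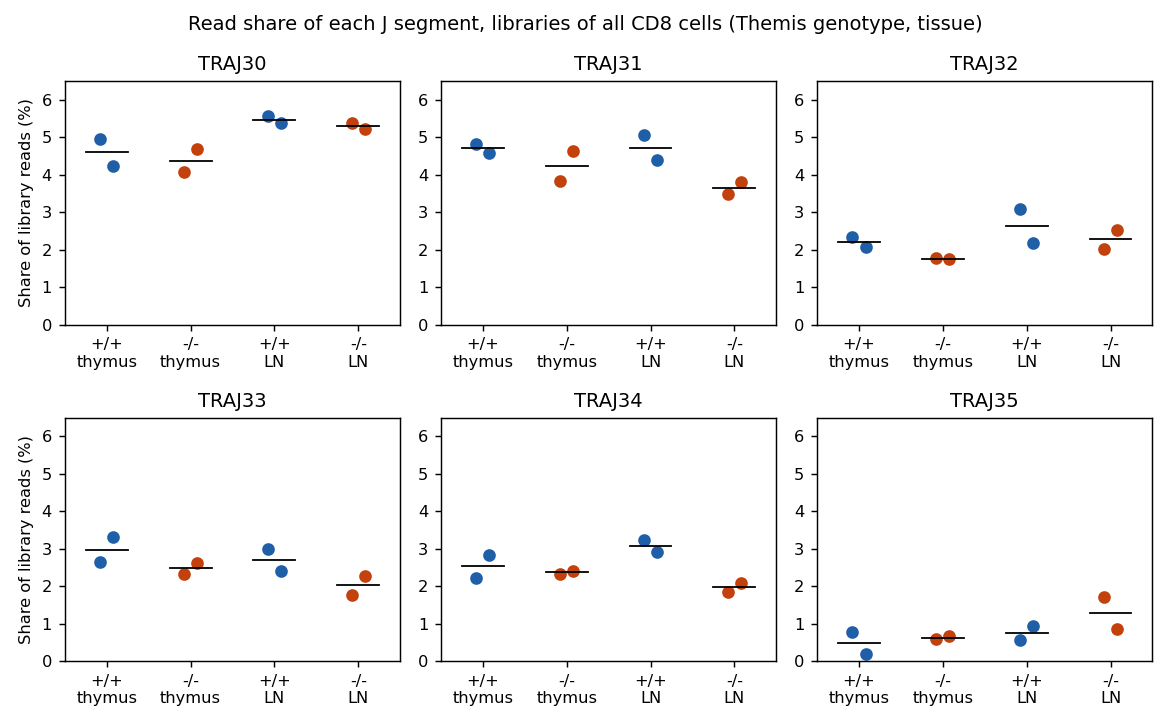
Share of a library's reads (percent, y axis) for TRAJ30 to TRAJ35, 1 panel each, in the 4 groups of all CD8 T cells by Themis genotype and tissue (LN, lymph node); points are libraries and lines are the mean of the 2. TRAJ30 and TRAJ31 lie between 3.47% and 5.56% and TRAJ35 between 0.203% and 1.72%, and TRAJ30 is higher in all 4 lymph node libraries than in all 4 thymus libraries.

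The first comparison asks whether loss of Themis changed the use of these segments. In edgeR's quasi-likelihood test over the 43 TRAJ segments, 0 of the 6 passed an adjusted p of 0.05 between Themis-/- and Themis+/+ in lymph node, where 2.33% of all segments passed, or in thymus, where also 2.33% passed. None of the 6 reached an unadjusted p of 0.05 in either tissue, and DESeq2 called 0 of them as well. The lymph node difference was a log2 fold change of -0.59 ± 0.32 (SE) for TRAJ34 (adjusted p = 0.400 by edgeR), -0.33 ± 0.22 for TRAJ31 and -0.38 ± 0.32 for TRAJ33. TRAJ35 differed in the other direction, by 0.87 ± 0.56 in lymph node and 0.45 ± 0.56 in thymus. In thymus the other 5 segments lay between -0.24 and 0.01.

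Some groups did not overlap. Both Themis-/- lymph node libraries lay below both Themis+/+ ones for 4 of the 6, TRAJ30, TRAJ31, TRAJ33 and TRAJ34, against 25.6% of all 43 segments. In thymus this was so for 2 of the 6, TRAJ32 and TRAJ33, against 37.2% of all segments. For TRAJ30 in lymph node the groups were parted only by 5.37% against 5.39%. Its log2 fold change by edgeR there was 0.007 ± 0.21 (SE). The 6 segments together made up 17.8% and 17.2% of reads in Themis+/+ thymus, 14.9% and 16.8% in Themis-/- thymus, 20.5% and 18.2% in Themis+/+ lymph node and 16.2% and 16.8% in Themis-/- lymph node. The summed share was lower in both Themis-/- libraries of each tissue, with a log2 difference of -0.23 in lymph node and -0.15 in thymus. The two-sided exact permutation p was 0.33 for each, which is the smallest that 2 libraries against 2 can give. The difference was thus not shown to exceed the spread of the libraries.

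The second comparison asks whether mature lymph node cells differed from the thymocytes they derive from. By edgeR 0 of the 6 segments passed in Themis+/+ mice and 0 in Themis-/- mice, with 0% of all segments called in each, and 0 of the 6 reached an unadjusted p of 0.05. TRAJ30 was higher in lymph node by a log2 fold change of 0.22 ± 0.21 in Themis+/+ mice and 0.21 ± 0.21 in Themis-/- mice. Its lymph node libraries lay above its thymus libraries in both genotypes, as did those of TRAJ34 in Themis+/+ mice and of TRAJ32 and TRAJ35 in Themis-/- mice. Among all segments, 11.6% behaved this way in Themis+/+ mice and 30.2% in Themis-/- mice. TRAJ31, TRAJ33 and TRAJ34 had both lymph node libraries below both thymus libraries in Themis-/- mice, again against 30.2% of all segments. The Themis-/- effect in lymph node minus that in thymus was tested as an interaction, and 0 of the 6 passed it (adjusted p = 0.999 for each by edgeR). The summed share was higher in lymph node by 0.14 in Themis+/+ mice (exact permutation p = 0.33) and by 0.06 in Themis-/- mice (exact permutation p = 0.667).

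Only segments outside the block were searched for the closest course to each segment, over the 8 libraries of all CD8 T cells. On the log2 share of reads, TRAJ33 was most like TRAJ53 (Pearson r = 0.94) and TRAJ26 (0.85), TRAJ34 like TRAJ53 (0.83) and TRAJ56 (0.74), and TRAJ31 like TRAJ53 (0.83) and TRAJ42 (0.79). TRAJ35 was most like TRAJ23 (0.93) and TRAJ9 (0.73), TRAJ32 like TRAJ40 (0.80) and TRAJ38 (0.69), and TRAJ30 like TRAJ28 (0.73) and TRAJ38 (0.52). Some segments of the block were as close to each other. TRAJ31 and TRAJ33 had an r of 0.86, above that of TRAJ31 with TRAJ53. TRAJ33 and TRAJ34 had 0.79, and TRAJ30 had 0.67 with TRAJ32 and 0.63 with TRAJ35. In contrast, TRAJ33 and TRAJ35 had an r of -0.88. The other pairs within the block ran from -0.61 (TRAJ34 and TRAJ35) to 0.75 (TRAJ31 and TRAJ34). These are descriptions over 8 points that share libraries and depth, and shares within a library depend on each other.

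TRAJ31 stood out in the Vα3.2+ sorted libraries, where it split the replicates. It took 3.36% of reads in replicate 1 and 14.9% in replicate 2 of Themis+/+ thymus, and 3.60% and 13.4% in Themis-/- thymus. In lymph node it took 4.60% and 10.4% in Themis+/+ mice and 3.66% and 21.3% in Themis-/- mice. In all 4 replicate 2 libraries TRAJ31 ranked 1 of the 41 to 43 segments with reads. In replicate 1 it ranked 12 and 11 of 29 segments in thymus and 8 and 12 of 43 in lymph node (Themis+/+, then Themis-/-). Most of the gap was in TRAV9-4, a member of the TRAV9 family other than TRAV9N-3, the V that the Vα3.2 antibody is known to bind. TRAJ31 joined to TRAV9-4 took 10.7%, 9.58%, 5.05% and 18.1% of reads in replicate 2 of Themis+/+ thymus, Themis-/- thymus, Themis+/+ lymph node and Themis-/- lymph node. In replicate 1 it took 0%, 0%, 0% and 0.234%. TRAJ31 joined to any other V took between 3.19% and 5.35% of all reads in the 8 sorted libraries. When TRAV9-4 reads were taken out of the total as well, a smaller gap remained, with TRAJ31 at 3.57%, 3.60%, 4.66% and 3.48% in replicate 1 against 5.86%, 6.23%, 6.67% and 4.82% in replicate 2 in the same order of groups, so that each replicate 2 library lay above each replicate 1 library. In replicate 1 of Themis-/- thymus its whole share came from 1 row, and in replicate 1 of Themis+/+ thymus from 4 rows, of which the largest held 73.7% of its reads.

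**Figure D2:**
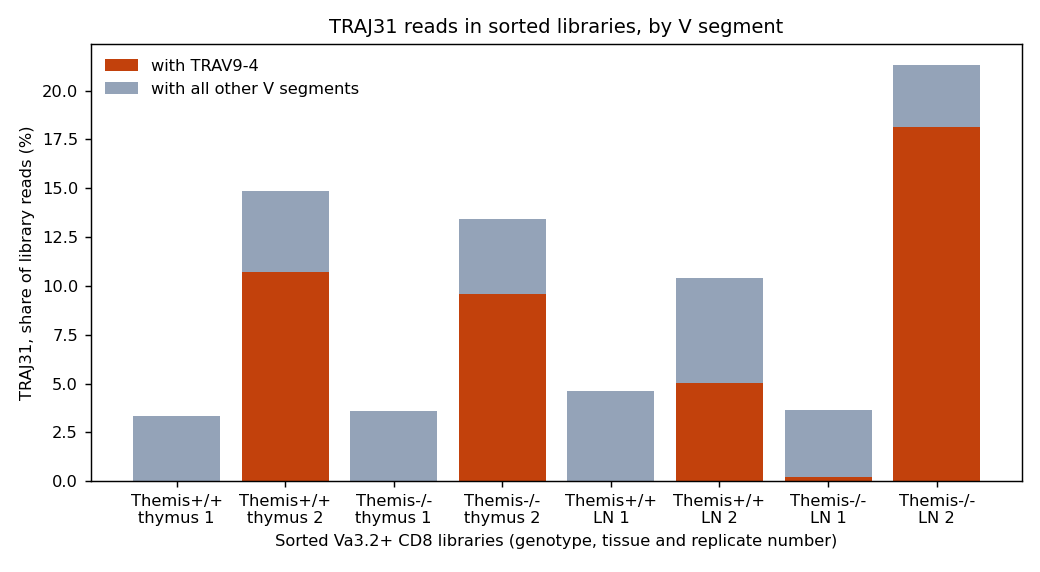
TRAJ31 share of reads (percent, y axis) in each of the 8 Vα3.2+ sorted libraries (x axis, by genotype, tissue and replicate), as stacked bars split by whether the V was TRAV9-4 or another segment. The part with other V segments lies between 3.19% and 5.35% in every library, and the TRAV9-4 part is at or above 5.05% in each replicate 2 library and at or below 0.234% in each replicate 1 library.

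Replicate 2 libraries as a whole held more TRAV9-4. Its share of all reads was 6.04% and 28.9% in Themis+/+ thymus, 0% and 38.7% in Themis-/- thymus, 1.13% and 19.9% in Themis+/+ lymph node and 1.56% and 33.7% in Themis-/- lymph node (replicate 1, then 2). Why replicate 2 held more TRAV9-4 was not tested. TRAJ31 was also a common partner of TRAV9-4 in cells that were not sorted, where TRAJ31 made up 5.15% of rows over all V segments. Other segments of the block were also more frequent with TRAV9-4. Of TRAV9-4 rows there, 4.65% used TRAJ32, 4.94% TRAJ34 and 2.91% TRAJ35, against 2.34%, 2.93% and 1.09% over all V segments. TRAJ33 (4.36% against 4.11%) was close to its share over all V segments, and TRAJ30 (3.49% against 4.32%) lay below. By reads of TRAV9-4, TRAJ32 (10.2%) lay above TRAJ31 (8.06%). In the pooled libraries of all CD8 T cells, 9.59% of 344 TRAV9-4 rows used TRAJ31 (95% exact binomial interval 6.70% to 13.2%), against 2.33% of 1074 rows of TRAV9N-3 and TRAV9D-3 (1.51% to 3.42%). Rows of TRAV9N-4 and TRAV9D-4 lay between, at 6.56% of 244 (3.79% to 10.4%). In the pooled sorted libraries it was 24.9% of 297 TRAV9-4 rows (20.1% to 30.2%), 13.3% of 270 rows of TRAV9N-4 and TRAV9D-4 (9.52% to 17.98%) and 3.36% of 4612 rows of TRAV9N-3 and TRAV9D-3 (2.86% to 3.92%). Of the 297 TRAV9-4 rows 279 were from replicate 2, with 25.8% TRAJ31, and replicate 1 had 2 of 18. For TRAV9N-4 and TRAV9D-4 the share was 9.70% of 134 rows in replicate 1 and 16.9% of 136 in replicate 2. The intervals cover counting error only, and rows of 1 library are not independent. Rows were counted as deposited, so in all CD8 T cells 1 junction can count as several rows that differ by J substitutions, described below. In single libraries of all CD8 T cells the share ran from 0% to 16.7% for TRAV9-4. For TRAV9N-3 and TRAV9D-3 it ran from 0% to 5.07%.

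A single TRAJ31 chain carried part of this. Its CDR3, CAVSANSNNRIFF, was joined to TRAV9-4 and held 22, 677, 697 and 1331 reads in replicate 2 of Themis+/+ thymus, Themis-/- thymus, Themis+/+ lymph node and Themis-/- lymph node, and 0 in all 4 replicate 1 libraries. It was named because it held the most reads of TRAJ31 in the sorted libraries. Its commonest nucleotide sequence was as follows.
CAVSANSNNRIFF: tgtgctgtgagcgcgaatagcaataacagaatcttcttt
It ends in 25 bases of germline TRAJ31, printed above, and was found in both genotypes and both tissues.

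The summed share of the 6 segments in sorted cells was, like that of TRAJ31, higher in replicate 2 of each group. It was 5.89% and 21.7% in Themis+/+ thymus, 9.28% and 23.2% in Themis-/- thymus, 12.4% and 22.5% in Themis+/+ lymph node and 10.9% and 29.6% in Themis-/- lymph node (replicate 1, then 2). Restricted to reads of TRAV9N-3 and TRAV9D-3, the shares were 7.09% and 14.6%, 10.5% and 9.37%, 11.7% and 10.005%, and 10.2% and 11.7%. The lymph node libraries thus lay between 10.005% and 11.7% once TRAV9-4 and the other V segments were left out. On these restricted reads, lymph node lay below thymus in replicate 2 of Themis+/+ mice (10.005% against 14.6%). It also did in replicate 1 of Themis-/- mice (10.2% against 10.5%), and it lay above thymus in the other pairs. Within the same replicate number, the full summed share over all V segments was higher in lymph node than in thymus in all 4 pairs of libraries. The log2 difference was 0.56 in Themis+/+ mice and 0.29 in Themis-/- mice (exact permutation p = 0.667 for each, and 0.5 when replicate numbers were kept as blocks, the smallest that 2 pairs allow). Between Themis-/- and Themis+/+ the log2 difference of the full summed share was 0.38 in thymus (exact permutation p = 0.667) and 0.10 in lymph node (exact permutation p = 1). In edgeR's test 0 of the 6 segments passed in any of the 4 comparisons of genotype or tissue within sorted cells, where 0% of all segments passed.

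The other 5 segments differed among themselves in sorted cells. TRAJ30 took 0.942% and 1.96% of reads in Themis+/+ thymus, 3.57% and 2.22% in Themis-/- thymus, 2.32% and 0.913% in Themis+/+ lymph node and 2.05% and 2.88% in Themis-/- lymph node. Every sorted library thus lay below every library of all CD8 T cells for TRAJ30, for which the lowest was 4.07%. TRAJ33 took 1.05% to 2.23% in sorted thymus and 2.46% to 3.12% in sorted lymph node. TRAJ34 ranged from 0.193% to 4.33%, and replicate 2 of Themis-/- thymus (4.11%) and of Themis+/+ lymph node (4.33%) lay above all libraries of all CD8 T cells, for which the highest was 3.24%. TRAJ32 ranged from 0% to 2.76%. TRAJ32 had no read in replicate 1 of either sorted thymus group. If reads were independent, this would allow shares of up to 0.0257% (Themis+/+) and 0.0290% (Themis-/-) from 3 counts. These libraries held only 84 and 86 rows in all, so the share of clonotypes is far less bounded. TRAJ35 had no read in 3 of the 4 sorted thymus libraries and took 0.227% to 0.960% in sorted lymph node.

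Sorted cells were compared with all CD8 T cells over both genotypes. By edgeR 0 of the 6 segments passed in lymph node, where 9.3% of the 43 passed, and 0 in thymus, where 2.33% passed. TRAJ30 came closest among the segments with reads in all libraries, at a log2 fold change of -1.22 ± 0.38 in lymph node (adjusted p = 0.054 by edgeR) and -1.22 ± 0.38 in thymus (adjusted p = 0.069 by edgeR). TRAJ35 in thymus, with no read in 3 of the 4 sorted libraries, had an adjusted p of 0.052 by edgeR. The TRAJ30 values stand against a median over all segments of -0.20 in lymph node and -0.59 in thymus. TRAJ31 was higher by 1.45 ± 0.68 in lymph node and 1.01 ± 0.67 in thymus, and neither passed (adjusted p = 0.180 and 0.430 by edgeR). On clonotypes in place of reads the lymph node difference of TRAJ31 was -0.027. TRAJ33 differed by 0.49 ± 0.36 in lymph node (adjusted p = 0.463 by edgeR), and on clonotypes by -0.76 (adjusted p = 0.0069 by edgeR), so its direction turned too. Both clonotype values count rows as deposited. Of TRAJ33 rows, 68.5% in all CD8 T cells and 3.08% in sorted cells carried a J substitution, explained below, so the sides are not counted alike. On merged clonotypes the TRAJ33 difference was smaller and did not pass. For lower shares in sorted cells with no overlap, TRAJ30 met this in lymph node against 27.9% of all segments, and TRAJ30, TRAJ32 and TRAJ33 in thymus against 16.3%. When merged clonotypes, described next, were counted in place of reads, TRAJ30 (-0.66, adjusted p = 0.0108), TRAJ32 (-0.87, adjusted p = 0.0086) and TRAJ34 (-0.73, adjusted p = 0.0084) passed edgeR's test in lymph node, where 30 of the 43 segments did. In thymus TRAJ31 passed edgeR's test (0.74, adjusted p = 0.0454), where 16 of 43 did.

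The CDR3 ends of these segments differed from the germline in libraries of all CD8 T cells and hardly at all in sorted cells. The last 12 bases of a CDR3 lie in the J segment, and a base there that differs from the germline is written as germline base, position and observed base, with positions counted from the 3′ end of the CDR3, where the last base is 1. Of 15674 rows of TRAJ30 to TRAJ35 in all CD8 T cells, 9365 had at least 1 such substitution, or 59.7%, with a range of 57.9% to 65.4% over the 8 libraries. In the sorted libraries it was 12 of 748 rows, or 1.60%, with a range of 0% to 9.09%. Over all segments the share was 50.1% to 57.4% of rows and 30.2% to 36.8% of reads in each library of all CD8 T cells, and 0.542% to 2.38% of rows in each sorted library.

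By segment, the share of rows was 50.6% for TRAJ30, 62.6% for TRAJ31, 55.2% for TRAJ32, 68.5% for TRAJ33, 53.7% for TRAJ34 and 75.6% for TRAJ35. TRAJ35 had the highest share of the 43 segments, TRAJ33 ranked 3, and the lowest was 7.53% for TRAJ42, with other segments compared to their commonest sorted end. Counted by reads the shares were 31.8%, 46.0%, 33.3%, 49.8%, 29.6% and 59.0%, so rows with a substitution held fewer reads than rows without. Among 12402 substitutions 81.6% were T to G and 13.3% G to T. The change T5G was in 36.1% of TRAJ30 rows, 35.4% of TRAJ31 rows, 33.8% of TRAJ32 rows, 34.8% of TRAJ33 rows and 34.6% of TRAJ34 rows. TRAJ31 also had T6G (40.6%), TRAJ33 T9G (40.6%), and TRAJ35 T2G (40.2%), T3G (37.9%) and T1G (34.4%). Each of these sits at a T of the germline stretch printed above.

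**Figure D3:**
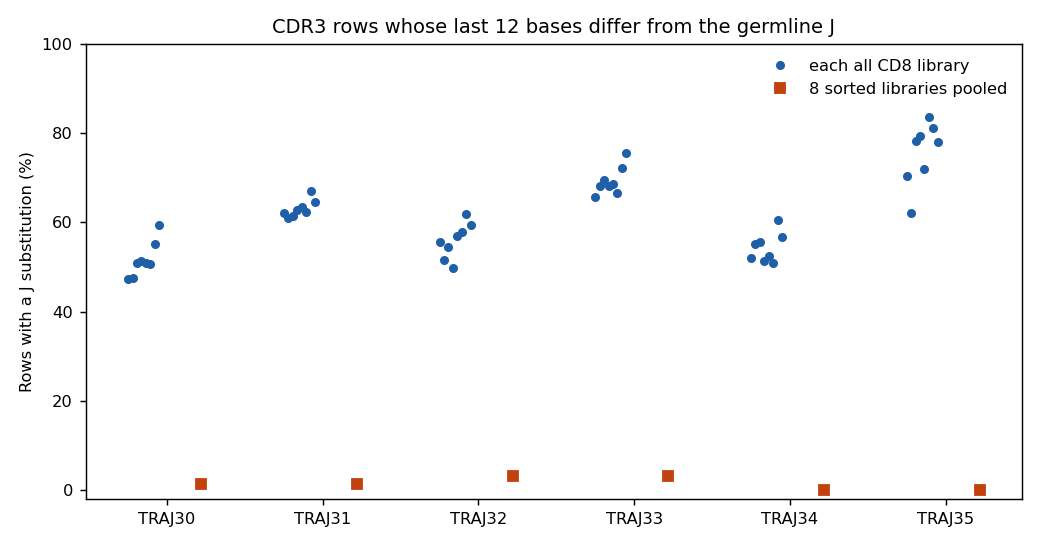
Percent of clonotype rows (y axis) with a base in the last 12 of the CDR3 that differs from germline, for TRAJ30 to TRAJ35 (x axis); circles are the 8 libraries of all CD8 T cells and squares the 8 sorted libraries pooled. Over the 6 segments the share was 59.7% in all CD8 T cells and 1.60% in sorted cells, and TRAJ35 and TRAJ33 are highest among the circles.

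A TRAV1 and TRAJ33 chain from replicate 1 of Themis+/+ lymph node shows how such rows sit beside each other. It was chosen after its values were seen, and the last 12 bases are in capitals.
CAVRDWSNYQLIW: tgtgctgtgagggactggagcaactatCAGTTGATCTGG
This germline end had 17 reads. The same sequence with T5G had 11 reads, with T9G 8, with both T9G and T5G 6, with A6T and T5G 3, with G7T 3 and with all of T9G, G7T and T5G 1 read. The deposited list thus counts 1 V and J junction as 7 clonotypes. To count such families once, the last 12 bases were set to germline, or to the commonest sorted end for other segments. Rows with the same V family, J and sequence were then merged, giving what is called merged clonotypes here. Merging removed 40.9% to 50.8% of the rows in each library of all CD8 T cells and 0% to 1.29% in each sorted library. Where the substitutions came from was not tested.

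On merged clonotypes the summed share of the block was close to that on reads. The 6 segments made up 17.9% ± 1.28 (SD, n = 2) in Themis+/+ thymus, 16.7% ± 0.307 in Themis-/- thymus, 18.6% ± 1.01 in Themis+/+ lymph node and 16.4% ± 0.209 in Themis-/- lymph node. TRAJ30 made up 4.27% ± 0.0122, 4.18% ± 0.204, 4.98% ± 0.249 and 4.25% ± 0.328 in this order. Its mean in Themis-/- lymph node thus lay below that in Themis+/+ thymus. The lymph node libraries therefore did not all lie above the thymus libraries for TRAJ30, as they did on reads. TRAJ35 made up 0.547% ± 0.101, 0.580% ± 0.119, 0.867% ± 0.128 and 0.953% ± 0.286. TRAJ30 and TRAJ31 had the highest group means and TRAJ35 the lowest, as on reads. The order among the other segments and between TRAJ30 and TRAJ31 was not the same on both scales in each group. In Themis-/- thymus TRAJ31 lay above TRAJ30 in both libraries on merged clonotypes (4.52% and 4.29%, against 4.32% and 4.03%) and below it in both on reads.

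The V partners of the block were the large V families. On merged clonotypes, averaged over the 8 libraries of all CD8 T cells, TRAV12 was the leading partner of TRAJ31 (20.7% ± 2.65, SD), TRAJ32 (22.04% ± 3.32), TRAJ33 (18.3% ± 2.56) and TRAJ34 (18.7% ± 4.74). TRAV7 led for TRAJ30 (16.9% ± 4.05) and TRAJ35 (19.1% ± 7.02). The second partner was TRAV6 for TRAJ30 (15.6% ± 3.16), TRAJ31 (16.5% ± 3.69), TRAJ34 (14.6% ± 1.55) and TRAJ35 (13.2% ± 4.17), and TRAV7 for TRAJ32 (14.7% ± 3.97) and TRAJ33 (14.9% ± 2.20). Over all other J segments these families made up 16.95% ± 0.756 (TRAV12), 13.2% (TRAV6) and 12.7% (TRAV7), so the leading partners of the block are the leading families of the repertoire.

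Along the locus, the block lay between J segments that used the nearest V genes often and J segments that hardly did. TRAV17 to TRAV23 are the V genes closest to the J cluster. They made up 13.8% of merged clonotypes of TRAJ48 to TRAJ61, 4.49% of TRAJ37 to TRAJ47, 1.29% of TRAJ30 to TRAJ35, 0.385% of TRAJ21 to TRAJ28, 0.143% of TRAJ11 to TRAJ18 and 0.290% of TRAJ2 to TRAJ9. In single libraries the block had 0.852% to 1.65%, with no overlap with the 3.09% to 6.04% of TRAJ37 to TRAJ47 or the 0.258% to 0.508% of TRAJ21 to TRAJ28. Inside the block the share was 2.68% for TRAJ35, 2.03% for TRAJ34, 1.44% for TRAJ33, 2.01% for TRAJ32, 1.11% for TRAJ31 and 0.315% for TRAJ30. It fell from the V side to the far side, apart from TRAJ32. TRAV1, the V gene farthest from the J cluster, made up 0.334%, 0.407%, 0.984%, 0.635%, 1.37% and 1.47% in the same order, with 0% for TRAJ48 to TRAJ61 and 1.04% for the block as a whole. The share was 0.327% for TRAJ37 to TRAJ47, 0.875% for TRAJ21 to TRAJ28, 0.914% for TRAJ11 to TRAJ18 and 0.434% for TRAJ2 to TRAJ9. TRAV1 use was thus not particular to the block.

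**Figure D4:**
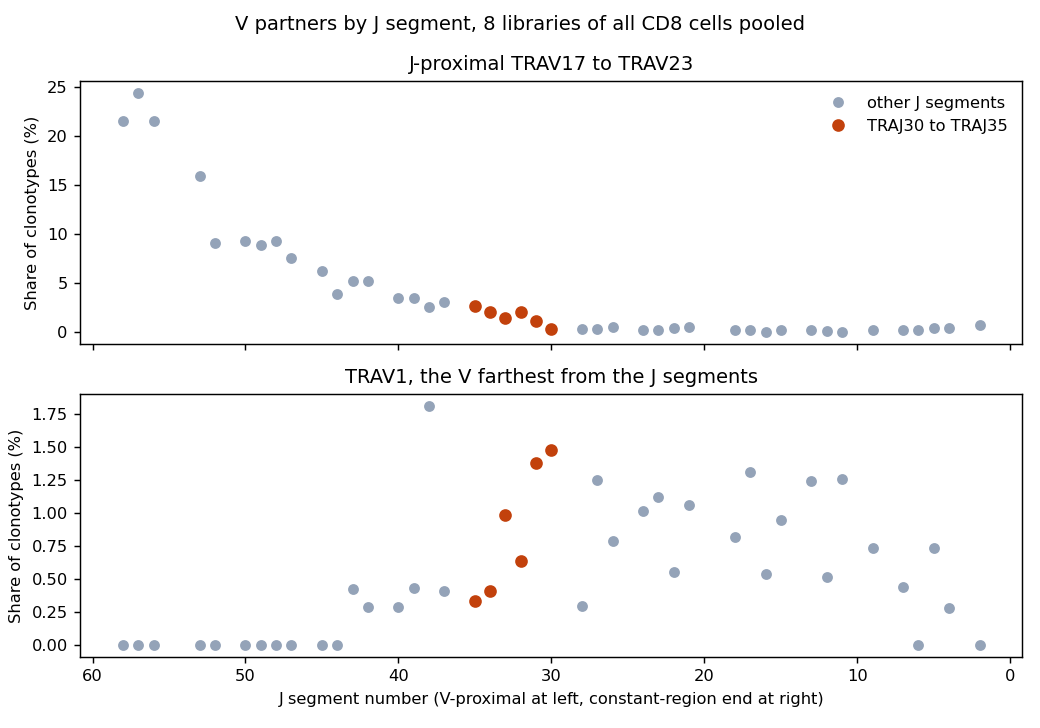
Percent of merged clonotypes (y axes) of each TRAJ segment (x axis, by number, with the V side at the left) that used TRAV17 to TRAV23, the V genes nearest the J cluster (upper panel), or TRAV1, the farthest (lower panel), in the 8 libraries of all CD8 T cells pooled. For the near V genes, TRAJ31 to TRAJ35, marked, lie between the TRAJ48 to TRAJ61 end (13.8%) and the blocks below TRAJ30 (at most 0.385%), and TRAJ30, at 0.315%, lies among the latter. TRAV1 is at 0% for TRAJ48 to TRAJ61 and at 0.334% to 1.47% for the marked segments, with 0.875% over TRAJ21 to TRAJ28 and 0.914% over TRAJ11 to TRAJ18.

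Pairs of V family and J were tested over 694 pairs, of which 102 held 1 of the 6 segments. By edgeR 0 of these 102 passed between Themis-/- and Themis+/+ in lymph node, where 0.144% of all pairs passed, or in thymus, where 0% passed. Between lymph node and thymus 0 passed in Themis-/- mice (0.432% of all pairs) and 0 in Themis+/+ mice (0%). At an unadjusted p under 0.05 there were 6 and 3 of the 102 for genotype in lymph node and thymus, against 73 and 19 of all 694. For tissue there were 5 and 3 of the 102 in Themis-/- and Themis+/+ mice, against 61 and 14 of all 694. The pair TRAV3 with TRAJ31 had 477 and 496 reads in Themis+/+ thymus, 385 and 513 in Themis-/- thymus, 478 and 383 in Themis+/+ lymph node and 18 and 147 in Themis-/- lymph node. Both Themis-/- lymph node libraries lay below the others, and the log2 fold change against Themis+/+ was -2.22 ± 0.87 (adjusted p = 0.362 by edgeR). TRAV10 with TRAJ34 had 171 and 37 reads in Themis+/+ lymph node and 1 and 0 in Themis-/- lymph node (adjusted p = 0.362 by edgeR), and TRAV1 with TRAJ31 had 0 and 1 against 80 and 38 (adjusted p = 0.394). DESeq2 called both of these last pairs, at adjusted p = 0.0254 and 0.0310, among the 27 of all 694 pairs that it called. These pairs were chosen after their values were seen.

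The MAIT pairing of TRAV1 with TRAJ33 was rare in every library. It had 39 and 5 reads in Themis+/+ thymus, 62 and 0 in Themis-/- thymus, 50 and 2 in Themis+/+ lymph node and 5 and 2 in Themis-/- lymph node. As shares these were at most 0.0424% of reads. The Themis-/- thymus library with no read allows up to 0.00259% from 3 counts, if reads are taken as independent, which reads of 1 clonotype are not. The 8 sorted libraries, which were selected for another V, had none. After merging, the reads came from 3, 3, 2, 0, 2, 1, 1 and 1 clonotypes, 13 in all. Replicates of the same group thus lay far apart, and edgeR gave a log2 fold change for Themis-/- against Themis+/+ of 0.33 ± 3.03 in thymus and -1.95 ± 3.17 in lymph node (adjusted p = 0.994 and 0.837). The CDR3 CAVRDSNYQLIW, which joins TRAV1 to TRAJ33 at the usual MAIT length, had 12 reads in replicate 1 of Themis+/+ thymus, 1 in replicate 1 of Themis+/+ lymph node and 2 in replicate 2 of Themis-/- lymph node. It is shown beside the germline segment above, with the last 12 bases in capitals.
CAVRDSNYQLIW: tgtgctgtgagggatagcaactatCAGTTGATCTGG
Among 277 merged clonotypes of TRAV1, TRAJ33 made up 4.69% (95% exact binomial interval 2.52% to 7.89%), against 3.05% of all 43334. Among the 20 V families with at least 200 merged clonotypes the share ran from 0.811% to 5.24%, and 1 family lay above TRAV1.

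CDR3 length followed the germline length of the J. Averaged over rows and then over the 8 libraries of all CD8 T cells, it was 39.7 ± 0.311 nt (SD) for TRAJ30, 36.8 ± 0.277 for TRAJ31, 45.4 ± 0.439 for TRAJ32, 37.6 ± 0.322 for TRAJ33, 38.4 ± 0.353 for TRAJ34 and 41.2 ± 0.586 for TRAJ35. The mean over all TRAJ rows was 40.6 ± 0.152 nt. TRAJ32 thus gave the longest loops of the 6 and TRAJ31 the shortest. Once the full germline CDR3 part was subtracted, 10.2 to 11.7 nt were left for each segment, so the segments differed far less in this remainder. It is what V and the junction added minus the J bases removed. TRAJ32 lost 3.88 and TRAJ35 3.87 J bases on average, against 1.70 for TRAJ30 and 2.01 for TRAJ33. In the pooled sorted libraries the means were 39.6, 37.7, 45.0, 38.2, 38.8 and 41.1 nt, in the order TRAJ30 to TRAJ35.

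N additions are bases that terminal transferase adds between V and J, counted here as the bases assigned to neither. Their mean per row was 1.78 for TRAJ30, 1.88 for TRAJ31, 2.32 for TRAJ32, 1.82 for TRAJ33, 2.05 for TRAJ34 and 1.80 for TRAJ35. TRAJ32 also had the fewest rows with none, 25.8% ± 5.75, against 38.6% ± 4.58 for TRAJ30 and 33.8% ± 1.70 over all TRAJ rows. By limma over 42 segments, 0 of the 6 differed in mean length or in N additions in any of the 4 comparisons of genotype or tissue, and the share called over all segments was 0% in each. None of the 6 reached an unadjusted p of 0.05 for length. For N additions only TRAJ31 did, between genotypes in thymus, where 4 of all 42 segments did so. It had 2.24 and 2.13 bases in Themis+/+ and 1.72 and 1.76 in Themis-/- libraries, a difference of -0.44 ± 0.16 (adjusted p = 0.309 by limma). The difference did not pass.

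**Figure D5:**
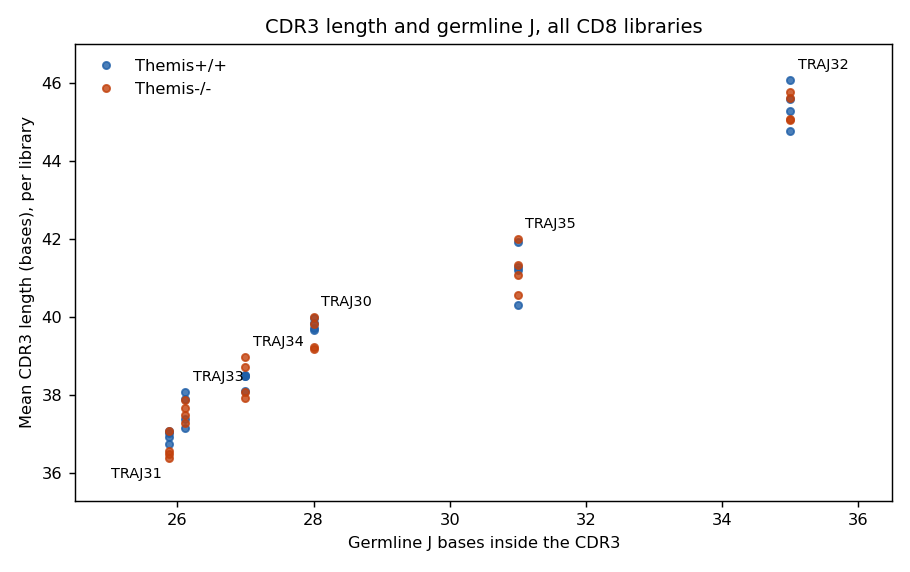
Mean CDR3 length in bases (y axis) against the germline J bases that can enter the CDR3 (x axis) for TRAJ30 to TRAJ35; points are the 8 libraries of all CD8 T cells, coloured by Themis genotype, and TRAJ31 and TRAJ33, both with 26 bases, are drawn slightly apart. TRAJ32 averages 45.4 bases and TRAJ31 36.8, and the genotypes overlap in each segment.

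TRAJ30 to TRAJ34 also had CDR3s shared by many libraries of all CD8 T cells. TRAJ35 had 1 of 681 in 4 or more of the 8, with 12 reads in all. In all CD8 T cells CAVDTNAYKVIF of TRAJ30 was in 8 of 8 libraries, with 204 and 68 reads in Themis+/+ thymus, 140 and 206 in Themis-/- thymus, 152 and 89 in Themis+/+ lymph node and 198 and 31 in Themis-/- lymph node. It came from 14 nucleotide sequences, and its commonest had no N base. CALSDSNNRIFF of TRAJ31 was also in 8 of 8 libraries, and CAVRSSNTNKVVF of TRAJ34 in 7. For TRAJ32, TRAJ33 and TRAJ35 the most shared CDR3s (in 6 libraries for TRAJ32, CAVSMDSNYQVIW in 8 for TRAJ33 and CAASAGFASALTV in 4 for TRAJ35) carried T5G, T9G and T3G, so their last residues are not the germline ones.

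In sorted cells the most shared chain of the block was TRAJ33 with TRAV9N-3. Its CDR3, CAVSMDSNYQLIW, had 0 and 123 reads in Themis+/+ thymus, 197 and 69 in Themis-/- thymus, 136 and 134 in Themis+/+ lymph node and 194 and 65 in Themis-/- lymph node. It was thus in 7 of the 8 sorted libraries and in both genotypes. It held 99.5% of TRAJ33 reads in replicate 1 of Themis-/- thymus, where TRAJ33 had 2 rows, and between 10.03% and 37.5% in the other 6 libraries that had it. The germline V and J ends overlap in it, so no N base is needed.
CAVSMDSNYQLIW: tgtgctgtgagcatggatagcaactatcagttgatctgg
The most shared CDR3s of the other segments in sorted cells were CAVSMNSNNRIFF of TRAJ31 in 6 libraries, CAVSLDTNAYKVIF of TRAJ30 in 5, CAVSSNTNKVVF of TRAJ34 in 4, and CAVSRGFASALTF of TRAJ35 in 2, as was that of TRAJ32. Between pairs of libraries of all CD8 T cells, 1.85% to 13.0% of the merged clonotypes of the block in 1 library were also in the other.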

How the data were processed

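Total RNA of sorted CD8 T cells was made into cDNA by template switching and amplified from the α constant region in 2 rounds of PCR, sequenced on a MiSeq and assembled into clonotypes with MiXCR by the authors. The deposited clonotype lists give the clone count, which is the number of reads per CDR3 nucleotide sequence, and the clone fraction, which is that count over the library's total. No molecular identifiers are described, so intervals and floors cover counting error only. Per the labels, the submitters' processing notes also list CASAVA 1.4 and the mm9 build. The files hold no coordinates, and those printed come from GENCODE M21 (GRCm38). For MiXCR no version is stated in the sources used here. A label of the sorted cells writes Va2.3 where the sample titles and the paper write Vα3.2.

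Counts were summed by first J hit, and by V family and J, and tested with edgeR 4.0.16 (TMM, quasi-likelihood, threshold 0.05 on the adjusted p) where 2 or more libraries held 10 or more reads. Libraries of all CD8 T cells and sorted libraries were fitted apart, and together for sorted against all. Mean CDR3 length and N additions per segment were tested with limma 3.58.1 (at least 20 rows per library) and summed shares with exact permutation tests. R 4.3.3, Python 3.11.15, scipy 1.17.1 and DESeq2 1.42.0 were also used, and the tests were checked on simulated data. Named were the 6 segments, TRAV1 with TRAJ33, the 2 leading V families per segment and the most shared CDR3s. The 6 segments and these lists were chosen with earlier results of these data known. Alternatives were DESeq2, library totals, no filter, clonotypes, merged clonotypes, a replicate block and leaving out each library. Merging and the restriction to TRAV9N-3 and TRAV9D-3 were chosen after seeing the data.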

Additional observations from a re-analysis of the deposited data

Results flagged for a closer look

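The read share of TRAJ34 lay on opposite sides between tissues in the 2 genotypes. In Themis+/+ mice both lymph node libraries of all CD8 T cells (3.24% and 2.92% of reads) lay above both thymus libraries (2.23% and 2.85%), and in Themis-/- mice both (1.86% and 2.10%) lay below both (2.34% and 2.42%). The difference of the 2 effects was -0.55 on the log2 scale of mean shares. In edgeR's interaction test it was -0.58 ± 0.45 (SE) and did not pass (adjusted p = 0.999). On merged clonotypes the Themis+/+ groups overlapped (3.51% and 2.67% in lymph node, 2.53% and 3.202% in thymus), and the Themis-/- libraries lay close together (2.49% and 2.67%, against 2.73% and 2.67%). The Themis-/- tissue difference of TRAJ34 ranged from -0.35 to 0.057 over the alternatives.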

How the results depend on the processing

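Of 48 differences of TRAJ30 to TRAJ35 between genotypes or tissues, 31 changed sign under at least 1 alternative. Only TRAJ35, between sorted lymph node and thymus of Themis-/- mice, was called in any, when only the compared groups were fitted (2 segments called against 0). Between Themis-/- and Themis+/+ lymph node, J segments called were 2 by DESeq2, 2 with library totals, 2 with the replicate block and 0 on clonotypes and merged clonotypes, against 1. In thymus they were 0 by DESeq2, on clonotypes and on merged clonotypes. For sorted against all CD8 T cells in lymph node they were 11 by DESeq2, 26 on clonotypes, 30 on merged clonotypes, 19 with only the compared groups and 0 with library totals, against 4. In thymus they were 6, 13, 16 and 0 with only the compared groups, and 0 with the block, against 1. V and J pairs called between genotypes in lymph node were 27 by DESeq2, 3 on clonotypes, 0 merged and 2 with only the compared groups, against 1, and 1 in thymus with only the compared groups. Between Themis-/- tissues they were 11 by DESeq2, 0 on clonotypes, 0 merged, 0 with only the compared groups and 1 with the block, against 3. CDR3 length had 1 segment called on distinct amino acid sequences in 2 comparisons. N additions had 1 with the block (lymph node genotypes), 1 on merged clonotypes (thymus genotypes and Themis-/- tissues), and 1 each on distinct amino acid sequences and with overlaps counted as negative (Themis-/- tissues). The cause of these moves was not tested.

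The summed share reversed between Themis-/- tissues on merged clonotypes (-0.024 against 0.06), in sorted cells on clonotypes (-0.029) and merged clonotypes (-0.038, against 0.29), and between genotypes of sorted thymus within TRAV9N-3 and TRAV9D-3 (-0.036 against 0.38). TRAJ31 in sorted against all lymph node cells was -0.027 on clonotypes, and TRAJ33 was -0.76 on clonotypes and -0.10 merged. TRAV6 with TRAJ32 between lymph node genotypes was 0.36 merged. Rows of at least 10 reads had J substitutions in 40.02%.

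Leaving out each library, the summed share ran from -0.23 to -0.06 (genotype, thymus), -0.31 to -0.14 (genotype, lymph node), 0.06 to 0.23 (tissue, Themis+/+) and -0.023 to 0.14 (tissue, Themis-/-). In sorted cells it ran from -0.56 to 1.32, -0.62 to 0.82, -0.38 to 1.503 and -0.43 to 1.01, with values on both sides of 0 in each. J segments called ran from 0 to 3 (genotype, lymph node), 0 to 8 (thymus, 8 without Themis+/+ replicate 1), 0 to 2 in sorted thymus genotypes and sorted Themis-/- tissues (2 without Themis-/- sorted thymus replicate 2), 0 to 3 (sorted against all, lymph node) and 0 to 20 (thymus, 19 and 20 without Themis-/- and Themis+/+ sorted replicate 2). Pairs ran from 1 to 18 (genotype, lymph node) and 0 to 15 (Themis-/- tissues), highest without Themis-/- lymph node replicate 2, and 0 to 2 (genotype, thymus). Without that library TRAV3 with TRAJ31 was at -4.16 (adjusted p = 0.0171 by edgeR) between lymph node genotypes. Length ran from 0 to 1 and 0 to 3, and N additions from 0 to 1. TRAV6 with TRAJ32 ran from -4.52 (without Themis-/- lymph node replicate 2) to 0.56 (without Themis+/+ lymph node replicate 1), and TRAJ34 in sorted against all lymph node cells from -0.85 to 0.14 (without sorted Themis+/+ replicates 2 and 1). A library left alone in its group was assumed to vary like the other groups. Replicate differences correlated between groups from -0.67 to 0.21 in all CD8 T cells and from 0.13 to 0.35 in sorted cells (43 segments). The paper's repertoire figure pools 2 experiments per genotype, but no label ties a replicate number to an experiment. With 2 pairs a comparison, numbers were not treated as pairs, and the block changed no other call. A shift shared by replicate number, as with TRAV9-4 in sorted cells, thus counts as spread in the unpaired tests. Depth limits TRAJ35, TRAV1 with TRAJ33 and sorted thymus most.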
